A study of Mus musculus with 32 samples.

Results

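The cells described here are phagocytes of mouse epididymal fat that carried many transcripts of Retnla, the secreted protein RELM-alpha that interleukin-4 and interleukin-13 induce in macrophages. They were selected on raw UMI counts (unique molecular identifiers, 1 per captured transcript): at least 20 UMIs of Retnla and 5 of the lysozyme gene Lyz2. They also had under 10 UMIs over the lipid-associated genes Trem2, Gpnmb and Mmp12, under 3 over the resident macrophage genes Timd4, Lyve1, Cd209f and Cd163, and under 5 over the cell cycle genes Mki67, Top2a, Birc5, Cdk1, Ccnb1 and Cenpf. These cuts were met by 701 of 19564 cells: 390 in normal diet WT, 23 in normal diet DTR, 265 in high fat WT and 23 in high fat DTR. The levels of these genes among the members follow from the cuts and are given as a description.

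Macrophages of serous cavities and fat differ by origin. Resident ones carry scavenger and folate receptors, while cells recently derived from blood monocytes keep the chemokine receptor Ccr2 and often present antigen on MHC class II. Small peritoneal macrophages of the latter kind are known for Retnla, Fcrls, Cd226, Tnip3, Lyz1 and the transcription factor Irf4. Type 2 conventional dendritic cells share Irf4, Itgax (CD11c), Cd209a and the lectins Clec10a and Mgl2 with such macrophages, and differ by Flt3 and Zbtb46.

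Stromal vascular fraction cells came from C57BL/6 mice, either wild type (WT) or CD169-DTR, kept on normal or high fat diet for 16 weeks. Diphtheria toxin was given for 7 days in all 4 groups, WT included. The DTR mice express the toxin receptor from the locus of Siglec1 (CD169), a lectin of tissue resident macrophages. Cells with and without CD45 went through separate sorts, whose gates dropped many F4/80-high macrophages and Ly6C-high monocytes. They were then mixed 1:1 for 10x Genomics 3′ sequencing. The sources used here do not give the number of mice per library or how many Siglec1-positive cells they kept. Each group was 1 library, so no difference has a replicate check and no p-value is given. All intervals are 95% intervals for counting error.

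The libraries held 3624 to 5705 cells, of which 1847 to 2598 had a UMI of Ptprc, the gene of CD45. Members had median totals of 9587 to 11800 UMIs. Across libraries, 272 barcode sequences of cells occurred in more than 1 library, but no 2 members shared one, and 2 members had a barcode also seen in a cell of another library. Siglec1 had 1 UMI in all members, in high fat DTR, so the targeted gene does not check the labels in these cells. Vsig4 and Marco, scavenger receptors of resident macrophages, were at 0 UMIs in all 4 libraries, which allows up to 0.6995 CPM (a gene's UMIs scaled by all UMIs summed over the members) in normal diet WT and 11.9 CPM in high fat DTR.

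Members were many in both WT libraries and few in both DTR libraries. Of the members 387, 22, 257 and 23 had a Ptprc UMI, in normal diet WT, normal diet DTR, high fat WT and high fat DTR. They made up 15.7% (14.3 to 17.2%, exact Clopper-Pearson interval) of Ptprc-positive cells in normal diet WT and 1.19% (0.748 to 1.80%) in normal diet DTR. The share was 9.89% (8.77 to 11.1%) in high fat WT and 0.967% (0.614 to 1.45%) in high fat DTR. The share was thus 13.2-fold (8.57 to 21.3) lower in DTR than in WT on normal diet and 10.2-fold (6.67 to 16.4) lower on high fat diet. Within WT it was 1.59-fold (1.35 to 1.86) lower on high fat than on normal diet. Within DTR the log2 ratio of high fat over normal diet was -0.30 with an interval of -1.21 to 0.61, which holds 0, with 22 and 23 cells. With cells that held other classes' UMIs left out it was -1.95 (-3.76 to -0.42), on 15 and 5 cells, so this difference depended on which cells were kept. A lower share of members cannot be told apart from a higher number of other CD45-positive cells. The sort, which left out many F4/80-high cells, can set these shares, and its part was not tested.

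A count that did not use Retnla gave the same order between genotypes. With at least 10 UMIs of Fcrls plus Tnip3 in place of the Retnla cut, an alternative chosen after seeing the data, the share was 20.5% in normal diet WT, 2.71% in normal diet DTR, 14.01% in high fat WT and 1.68% in high fat DTR. That is 7.56-fold (5.65 to 10.3) lower in DTR on normal diet and 8.33-fold (6.00 to 11.9) lower on high fat diet. Under this cut the share within DTR was 1.61-fold (1.041 to 2.504) lower on high fat than on normal diet, from 40 and 50 cells. Fcrls and Tnip3 were themselves picked as markers of these cells on these libraries, so this is not independent support.

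**Figure D1:**
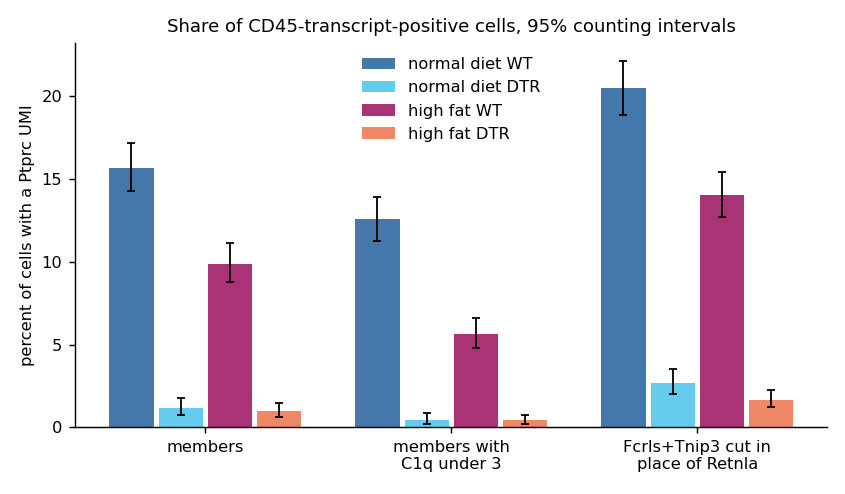
Percent of cells with a Ptprc UMI (vertical axis) that met each definition, 1 bar per library, with 95% counting intervals as error bars. The WT bars for the members stand at 15.7% and 9.89%, and the DTR bars at 1.19% and 0.967%; the WT bars are the higher ones under all 3 definitions.

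Retnla itself spanned a wide range among members. Its lowest, median and highest UMI counts per cell were 20, 97.5 and 731 in normal diet WT and 20, 78 and 714 in high fat WT. In normal diet DTR they were 21, 73 and 262, and in high fat DTR 23, 38 and 194. The ranges overlapped, and the upper ends were lower in the DTR libraries, which have far fewer cells. Just inside the cut, at 20 to 24 UMIs, there were 20, 4, 18 and 2 cells in normal diet WT, normal diet DTR, high fat WT and high fat DTR, and just outside, at 15 to 19 UMIs, 16, 0, 21 and 1. At a cut of 40 UMIs, 336, 16, 196 and 11 members were left in the same library order.

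**Figure D2:**
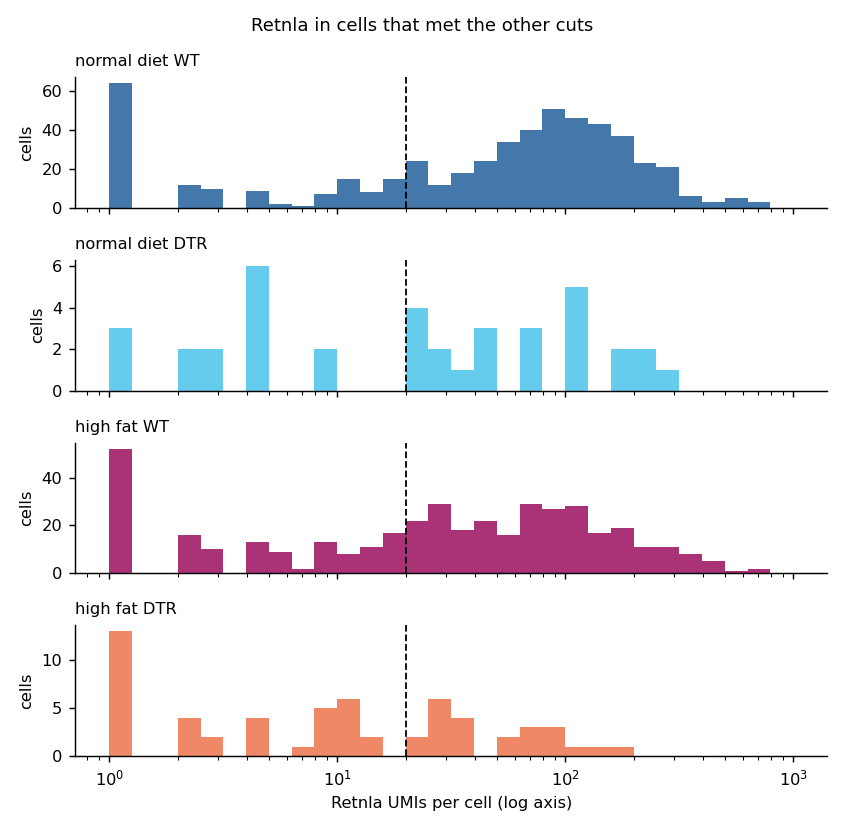
Number of cells (vertical axis) by Retnla UMIs per cell (log axis), 1 panel per library, for cells with a Retnla UMI that met all other cuts; the dashed line marks 20 UMIs. In normal diet WT the members form a peak apart from the cells at 1 UMI, with a median of 97.5, while in high fat DTR the median is 38.

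Members held most of the Retnla UMIs in 3 of 4 libraries: 80.7% in normal diet WT, 67.8% in normal diet DTR and 58.2% in high fat WT, and 39.7% in high fat DTR. In all, 456 cells of normal diet WT and 410 of high fat WT reached 20 UMIs, and 19 and 58 of them failed the lipid cut, 12 and 43 the resident cut and 37 and 52 the cell cycle cut. In lymphocytes, which should lack the gene (cells with at least 3 UMIs of Ncr1, Klrb1c, Cd3e and Cd79a and under 5 of Lyz2), a Retnla UMI was found in 9.11% of cells in normal diet WT and 6.20% in high fat WT. In normal diet DTR it was found in 0.294% of 340 lymphocytes, and in high fat DTR in none of 200. Lymphocyte median depths were 3480 to 5400 UMIs, against 9587 to 11800 in members. With every cell thinned to 3000 UMIs, lymphocytes held at most 0.0831 Retnla UMIs per cell, and members 17.2 to 36.0.

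The other genes for which the cells were chosen were widespread, except Lyz1. Fcrls, an Fc receptor-like scavenger receptor, was found in 97.2%, 91.3%, 94.7% and 82.6% of members in normal diet WT, normal diet DTR, high fat WT and high fat DTR, at medians of 8, 4, 6 and 2 UMIs. Tnip3, an inhibitor of NF-kappa-B signalling, was found in 98.0%, 95.7%, 95.5% and 95.7%, at medians of 13, 5, 10 and 5 UMIs. In both genotype pairs the DTR members had the lower median. In lymphocytes Fcrls was found in at most 1.00% and Tnip3 in at most 4.07% of cells. Lyz1, the intestinal and myeloid lysozyme next to Lyz2 on chromosome 10, was found in 46.9%, 34.8%, 38.5% and 21.7% of members. The transcripts of Lyz1 and Lyz2 (GENCODE vM21) are 96% identical over 1262 aligned bases and 96.9% over their last 300, so 3′ reads could be split between them and Lyz1 counts are uncertain.

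The stretches before the starts of Retnla, Tnip3 and Lyz1 are shown because these genes mark the same cells (RefSeq starts, GRCm38.p6; bases that overlap a GENCODE exon of the gene were left off). They are chr16:48842359-48842550 on the plus strand, just before the first GENCODE exon of Retnla, chr6:65590148-65590397 on the plus strand, inside the longer GENCODE model of Tnip3, and chr10:117292869-117293118 on the minus strand, just before the first exon of Lyz1. Capitals mark matches, on either strand, to TTCNNNNGAA (a STAT palindrome), TTGCNNAA (C/EBP) or GAGGAA (an ETS core), none of which overlap here.
Retnla: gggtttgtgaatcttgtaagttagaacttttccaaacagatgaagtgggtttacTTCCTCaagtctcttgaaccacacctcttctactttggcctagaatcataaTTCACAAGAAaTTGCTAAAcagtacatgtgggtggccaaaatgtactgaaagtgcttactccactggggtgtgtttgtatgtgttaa
Tnip3: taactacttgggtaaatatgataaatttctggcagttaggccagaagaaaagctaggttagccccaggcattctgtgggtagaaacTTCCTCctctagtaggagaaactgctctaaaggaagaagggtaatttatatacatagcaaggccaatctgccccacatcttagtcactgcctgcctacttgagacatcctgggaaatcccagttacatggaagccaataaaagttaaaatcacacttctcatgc
Lyz1: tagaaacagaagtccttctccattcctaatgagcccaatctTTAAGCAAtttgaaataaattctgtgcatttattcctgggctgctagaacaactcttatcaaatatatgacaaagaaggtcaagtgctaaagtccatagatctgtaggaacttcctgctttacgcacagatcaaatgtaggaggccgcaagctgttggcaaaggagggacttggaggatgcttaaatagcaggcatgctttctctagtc
Over the 250 bases before 32851 RefSeq starts, the STAT palindrome was found in 5.85%, the C/EBP letters in 9.56% and the ETS core in 23.3%. Over the first 192 of these bases, the length searched for Retnla, the shares were 4.58%, 7.84% and 18.2%. The Retnla stretch held 1 match to each, with the STAT and C/EBP letters side by side at positions -145 and -134 from the start. Tnip3 held 1 match, to the ETS core, and Lyz1 held 1, to the C/EBP letters. For Fcrls only 36 bases were free of its exons, with no match, and they are not printed.

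The label given to these cells, phagocytes with dendritic markers, held in part. Antigen presentation genes were in nearly all of them: the class II chain H2-Ab1 had medians of 76, 51, 80 and 40 UMIs in normal diet WT, normal diet DTR, high fat WT and high fat DTR, and the invariant chain Cd74 medians of 199.5, 153, 198 and 114. Irf4 was found in 74.6%, 69.6%, 64.2% and 60.9% of members, and Itgax in 63.8%, 69.6%, 53.6% and 34.8%. Cd209a, the CD209 lectin of monocyte-derived and type 2 dendritic cells, was found in 37.7%, 13.04%, 21.9% and 8.70%. The factors that define conventional dendritic cells were scarce. Zbtb46 was found in 16.9% of members in normal diet WT and 8.70 to 10.2% elsewhere, and Flt3, the receptor dendritic cells depend on, in 0.769 to 8.70%. After thinning to 3000 UMIs, Flt3 was found in 0% of members and 0.656% of lymphocytes in normal diet WT, and in 0.778% and 1.15% in high fat WT, so its share was at or below this background in WT. In normal diet DTR it was found in 4.55% of 22 thinned members and no lymphocyte. Itgax, thinned, was found in 32.1%, 18.2%, 25.7% and 26.1% of members in the library order above. The thinned lymphocytes had it in 6.78%, 20.2%, 10.0% and 14.4%, so in normal diet DTR members were not above them. That gate takes in NK cells through Ncr1 and Klrb1c, and its thinned cells in normal diet DTR had Retnla in 0%. Whether their Itgax was their own or free RNA was not tested, so it is not a background for this gene. Thinned Zbtb46 was found in 0% of high fat DTR members and 5.93% of lymphocytes there. In the other libraries Zbtb46 was higher in members, and Irf4 and Cd209a were so in every library.

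Macrophage and monocyte genes were also mixed. Cd14, the lipopolysaccharide co-receptor, was found in 92.1 to 97.2% of members, and Csf1r, the macrophage growth factor receptor, in 81.3 to 88.3%. Fn1, fibronectin, was found in 91.3 to 100%, at medians of 35.5, 44, 26 and 16 UMIs in the library order above, and Ccr2 in 82.6 to 92.1%. Ly6c2, Plac8 and Ms4a4c of the monocyte list were lower in members than in the type 2 dendritic gate described below. Adgre1 (F4/80) was found in 50.3%, 30.4%, 61.5% and 56.5%, in a sort that left out many F4/80-high cells. Mertk, the engulfment receptor used to tell macrophages from dendritic cells, was found in at most 4.35% of members. Fcgr1 (CD64) was found in 1.54% and 5.28% of WT members, on normal and high fat diet, and in 34.8% and 26.1% of DTR members. Cd226 was found in 51.8%, 34.8%, 40.4% and 52.2%. Gata6, the factor of large cavity macrophages, had at most 10.53 CPM, and the 11 genes of the large cavity list summed to 32.2 to 63.2 CPM, against 2034 to 4461 CPM for the 10 genes of the small cavity list, which holds genes the cells were chosen for.

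**Figure D3:**
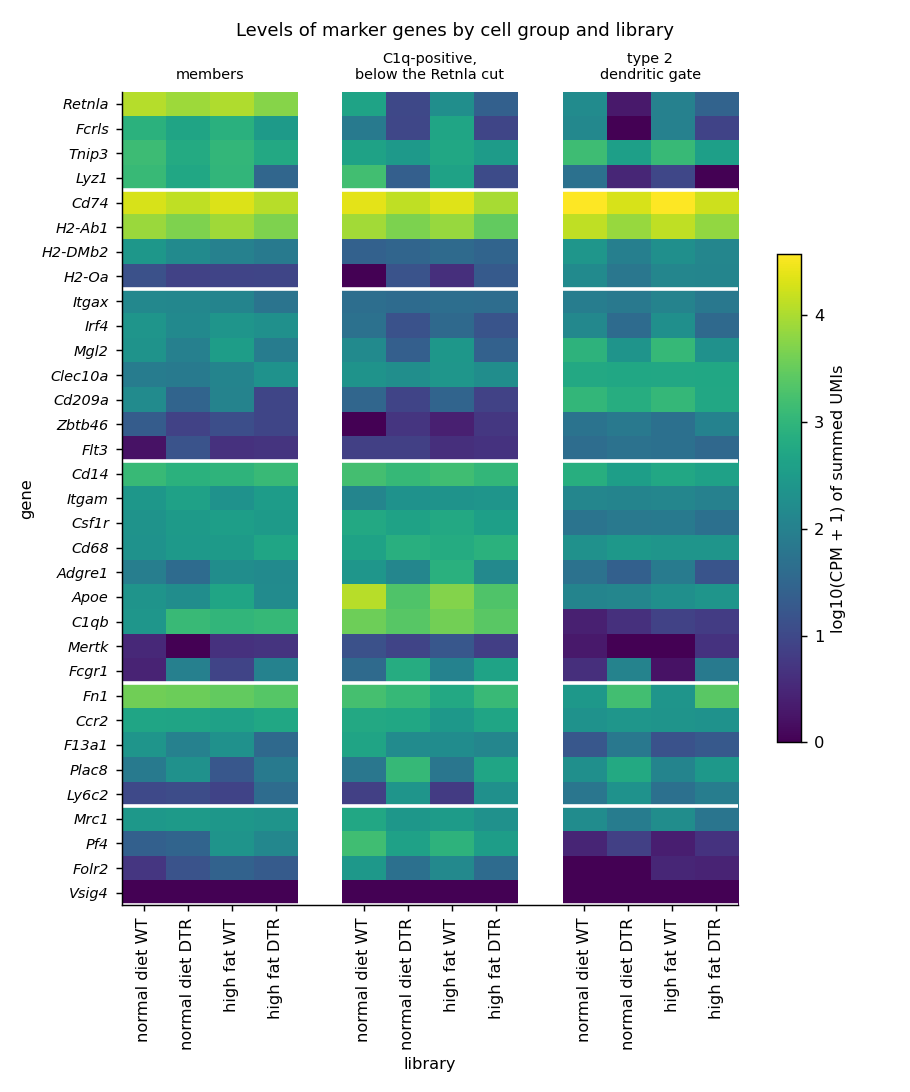
Levels of marker genes, as log10(CPM + 1) by colour, with genes in rows and libraries in columns, for the members, for C1q-positive phagocytes below the Retnla cut and for the type 2 dendritic gate. The members combine Cd74 within 2-fold of the dendritic gate with Fn1, Csf1r and Cd14, and Vsig4 is at 0 in all members.

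The members fell on a range of complement C1q, which macrophages make and conventional dendritic cells largely lack. Summed over C1qa, C1qb and C1qc, 310 of 390 members in normal diet WT had under 3 UMIs and 40 had 10 or more, which is 10.3% (7.43 to 13.7%). In high fat WT 83 of 265 had 10 or more, or 31.3% (25.8 to 37.3%). In the DTR libraries 11 of 23 members (47.8%, 26.8 to 69.4%) on normal diet and 9 of 23 (39.1%, 19.7 to 61.5%) on high fat diet had 10 or more. The intervals of the WT libraries did not overlap each other, and that of normal diet WT lay below both DTR intervals. Between the bounds, at 3 to 9 UMIs, lay 40, 4, 33 and 4 members in normal diet WT, normal diet DTR, high fat WT and high fat DTR.

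Several marker genes differed between the C1q classes, and dendritic genes did not all go one way. In WT on normal and high fat diet, Cd209a was found in 41.3% and 30.2% of members with under 3 C1q UMIs and in 20% and 6.02% of those with 10 or more. Itgax was found in 68.1% and 65.1% against 35.0% and 36.1%. Zbtb46 was found in 19.7% and 13.4% against 0% of 40 cells and 4.82%. The lectins Clec10a and Mgl2 were not scarcer with C1q: Clec10a was found in 41.6% and 40.9% against 60% and 65.1%, and Mgl2 in 51.9% and 59.7% against 52.5% and 80.7%. Adgre1 was found in 48.1% and 52.3% against 72.5% and 79.5%, and Pf4, a chemokine of resident macrophages, in 0% and 5.37% against 22.5% and 60.2%. Cd74 differed little, at 19678 and 21082 CPM against 20625 and 20734 CPM. Retnla was not lower in C1q-rich members of WT: medians were 90 and 70 UMIs with under 3 C1q UMIs, and 132 and 115 with 10 or more. Median depths were 9851 and 8637 UMIs against 10900 and 10338, and these shares were not thinned.

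**Figure D4:**
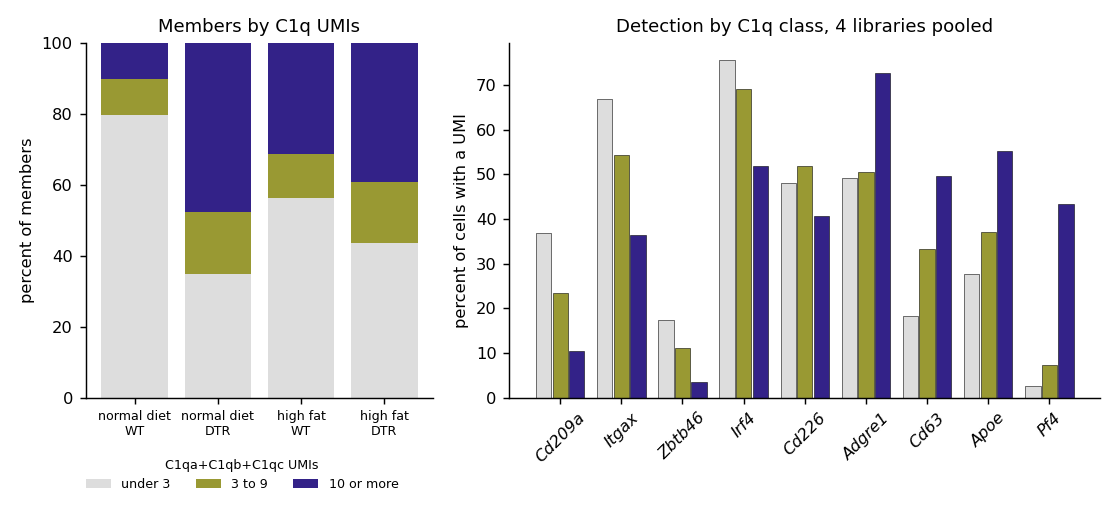
Left, percent of members in each class of summed C1qa, C1qb and C1qc UMIs, 1 bar per library; right, percent of cells with a UMI of each gene (vertical axis) by C1q class, with the 4 libraries pooled. Members with 10 or more C1q UMIs make up 10.3% in normal diet WT and 31.3% in high fat WT; Cd209a and Itgax bars shrink and Adgre1 and Pf4 bars grow with C1q; Clec10a and Mgl2, not drawn, go from 41.5% to 63.6% and from 53.9% to 67.1% between the lowest and highest class.

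Among the low-C1q members alone, an alternative added after seeing the data, the share of Ptprc-positive cells was 12.6% in normal diet WT and 0.433% in normal diet DTR, 29.0-fold (14.5 to 67.8) lower. It was 5.66% in high fat WT and 0.420% in high fat DTR, 13.5-fold (7.12 to 28.7) lower. The WT diet difference was 2.22-fold (1.82 to 2.72) in them, against 1.59-fold over all members.

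As a description, with no p, Retnla was set against other genes over the members of each WT library, thinned to 3000 UMIs (386 cells on normal and 257 on high fat diet). The values share library and depth. Pearson's r of log2(UMIs + 1) was 0.40 and 0.20 for Fn1, 0.27 and 0.25 for Fcrls, and 0.19 and 0.30 for C1qb. It was -0.12 and -0.13 for Cd209a and -0.23 and -0.02 for Mgl2. Irf4 had 0.05 and -0.10, and Itgax 0.01 and -0.12.

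Members were next set against the type 2 dendritic gate of the same library, cells with at least 3 UMIs of Flt3, Zbtb46 and Cd209a, under 3 of C1q, few of type 1 or migratory dendritic genes and Retnla below the cut (240, 94, 160 and 65 cells in the library order above). Of 2382 genes with 50 UMIs in all 4 libraries and not used by either gate, 57 (2.39%) were past 2-fold higher in members in all 4 libraries and 30 (1.26%) past 2-fold lower. The 6 higher genes named by rule were Lpl, Hmox1, C5ar1, Ctsd, Fcrls and Clec4e. Lpl, lipoprotein lipase, was at 1723 CPM in members and 149 CPM in the gate in normal diet WT, and its log2 ratio was 3.42 to 5.70 over the libraries. Heme oxygenase Hmox1 had log2 ratios of 3.17 to 3.47, the complement receptor C5ar1 3.04 to 3.68, the lysosomal protease Ctsd 3.00 to 3.68, and the lectin Clec4e 2.62 to 3.46. Fcrls was at 837 against 135 CPM in normal diet WT and at 467 CPM against 0 UMIs in normal diet DTR. Of the lipid-associated list, 4 of 9 measured genes were higher in all libraries (Lpl, Cd36, Plin2 and Lipa), of the lysosome list 2 of 15 (Ctsd and Lipa), and of the macrophage list 2 of 6, among them Csf1r, with log2 ratios of 1.96 to 2.74.

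The dendritic gate in turn had more of the lectins Clec10a and Mgl2, with log2 ratios of -2.82 to -1.30 and -2.01 to -1.27, although both are also in the members. The lower genes named by rule included Klrd1, H2-Oa, Cd7, Grasp and Tspan13. Cd7 was at 58.3, 240.5, 115.9 and 147.9 CPM in the gate, in the library order above. Whether the gate held only type 2 dendritic cells was not tested, so genes lower in members may come from a part of it. Klrd1, a receptor of killer cells, was at 13.1 CPM in members and 151 CPM in the gate in normal diet WT, and H2-Oa, a modulator of class II peptide loading, at 12.6 and 155 CPM. Cd74 was lower in members by log2 ratios of -0.87 to -0.46, and Itgax and Tnip3 were within 0.89 of 0 in every library. Of 7 measured monocyte genes, 0 were past 2-fold higher in members in all 4 libraries and 3 were past 2-fold lower. The lower ones were Ly6c2 (-4.32 to -1.10), Plac8 (-2.83 to -1.32) and Ms4a4c (-4.75 to -1.52). Fn1 had log2 ratios of 3.83, 1.22, 3.57 and -0.15 in the library order above.

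The second comparison was with C1q-positive phagocytes that met every cut except Retnla and had 10 C1q UMIs (22, 147, 143 and 277 cells, in the library order above). Of 4091 genes, 31 (0.758%) were past 2-fold higher in members in all 4 libraries and 23 (0.562%) past 2-fold lower, C1q genes left out. Irf4 was at 241, 147.5, 238 and 198 CPM in members and 50.2, 13.1, 35.8 and 14.1 CPM in these phagocytes. The cytokine Il6 was at 302, 298, 142 and 222 CPM against 62.7, 31.7, 21.3 and 38.2 CPM. The small GTPase Rras2 had log2 ratios of 2.52 to 3.43, Cd24a 2.11 to 3.69, the growth factor receptor Fgfr1 1.90 to 3.47, and the semaphorin receptor Plxnd1 1.51 to 2.74. H2-DMb2, which loads peptides on class II, was higher by 1.41 to 3.37, while H2-Ab1 was within 0.71 of 0.

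Of the genes lower in members than in these phagocytes, 6 were named by rule. Apoe, a lipid carrier of macrophages, was at 228, 172, 488 and 158 CPM in members and 12145, 2045, 5340 and 2045 CPM in the phagocytes. In high fat DTR members Cx3cr1 had no UMI. The named others were Lst1, Aif1 and Ms4a6c, genes of monocytes and macrophages, the receptor Cd93, and the fractalkine receptor Cx3cr1, with log2 ratios from -4.57 to -1.71. The gate asked for C1q, and its part in these differences was not tested.

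A gate on the resident genes (3 UMIs of Timd4, Lyve1, Cd209f and Cd163) held 20 cells only in the WT libraries, 141 and 161. Its cells were not of 1 kind: Clec9a and Xcr1, genes of type 1 dendritic cells, were at 179 and 97.6 CPM in normal diet WT. Against it, of 6450 genes, 5.92% were past 2-fold higher in members in both WT libraries, led by the chemokine Cxcl3 with log2 ratios of 5.66 and 6.43, and 3.35% past 2-fold lower. A narrower gate with 10 C1q UMIs, added after seeing the data, held 56 cells in high fat WT and 8 or fewer elsewhere. There 9.64% of 6015 genes were past 2-fold higher in members and 9.86% lower. In that library Itgax was higher in members by 3.45 on the log2 scale, Cd226 by 3.44 and Fn1 by 3.11, while the lectin gene Cd209g was at 636 CPM in the resident cells and 0 UMIs in members, and the chemokine Ccl8 at 2666 against 37.5 CPM.

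Within the members, the 23 DTR cells on normal diet were compared with the 390 WT cells. Of 6458 genes with 50 UMIs over both libraries, 9.31% were past 2-fold higher in DTR and 8.64% past 2-fold lower, with a median log2 ratio of 0.09. With edgeR's TMM scaling the median moved by -0.27 and the split of genes past 2-fold from 601 higher and 558 lower to 315 and 901. DTR members had less of the genes that mark the cells and of class II. The marker genes were picked on these libraries, where most members are WT, so their ratios are given as a description. Tnip3 was at 607 against 1370 CPM and Fcrls at 467 against 837 CPM, a log2 ratio of -0.84 (-1.10 to -0.59). All 9 class II genes were within 2-fold, and the intervals of 6 lay below 0, with a median of -0.62; Cd74 was at 13243 against 19668 CPM. Of 12 type 2 dendritic genes 10 were measured, 5 past 2-fold lower and 1 higher, with a median of -0.96; Cd209a was at 28.1 against 158 CPM, a log2 ratio of -2.49 (-3.71 to -1.5). Il4ra, the receptor chain for interleukin-4 and interleukin-13, was lower by a log2 ratio of -1.64 (-2.65 to -0.78).

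The lipid-associated, lysosome and inflammatory lists had medians above that of all genes in normal diet DTR, and the sterol and lipid list did not. Of 12 lipid-associated genes 10 were measured, 7 past 2-fold higher and none lower, with a median of 1.29 (1.02 with TMM scaling). The rule that chose the members left out cells with much Trem2, Gpnmb and Mmp12, which are not counted here. Plin2, the lipid droplet coat protein, was at 1341 against 231 CPM (2.54, 2.36 to 2.71) and was found in all 23 DTR cells and 288 of 390 WT cells. Lpl was at 4318 against 1723 CPM and the fatty acid receptor Cd36 at 663.5 against 212 CPM. The sterol and lipid list, which shares such genes, had 8 of 19 measured past 2-fold higher and 4 lower, with a median of -0.21. Of 15 lysosome genes, 6 were past 2-fold higher and none lower, with Ctsd at 2728 against 811 CPM (1.75, 1.64 to 1.86). Of 22 inflammatory genes 19 were measured and 8 were past 2-fold higher, none lower: the chemokine Ccl7 was at 1583 against 174 CPM in 17 of 23 and 112 of 390 cells, and Tnf at 814.5 against 123 CPM in 14 and 174 cells. Il1b, at 3595 against 4793 CPM, was lower by a log2 ratio of -0.41. C1qb was at 1236 against 245 CPM, in step with the share of C1q-rich members given above.

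The genes with the largest ratios on normal diet often came from few cells. The 6 highest were Ppbp, Cxcl9, Ccl24, Irf8, Ikbke and Col3a1. The platelet chemokine Ppbp had 68 UMIs in 3 DTR cells, and Cxcl9, an interferon-gamma induced chemokine, 129 UMIs in 3 cells. Ccl24, an eosinophil attractant that interleukin-4 induces, was broader, in 12 of 23 DTR cells and 78 of 390 WT cells, at 1931 against 119 CPM (4.02, 3.85 to 4.20). Ikbke, a kinase of the interferon pathway, was in 13 and 28 cells (3.61, 2.81 to 4.41). The 6 lowest were Igha, Jchain, Pdcd4, Prkce, P2ry10 and Igkc, and the immunoglobulin transcripts Igha and Igkc were at 3.51 and 288 CPM in DTR against 799 and 3319 CPM in WT. Pdcd4, a translation inhibitor, had 1 UMI in 23 DTR cells and 248 UMIs in 160 WT cells, and the kinase gene Prkce 1 and 195 UMIs.

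Transcripts of other cell types differed between the same libraries. The 4 B cell markers summed to 266.5, 126, 70.8 and 0 CPM in members of normal diet WT, normal diet DTR, high fat WT and high fat DTR. The 5 fibroblast markers summed to 371, 1875, 1083 and 1781 CPM, and had 3 or more UMIs in 19, 6, 60 and 16 members. The 5 T cell markers summed to 108, 0, 147 and 15.8 CPM and the 4 NK markers to 57.6, 0, 82.1 and 0 CPM. All B and NK markers were at 0 in high fat DTR, and all T and NK markers in normal diet DTR. With the doublet call of normal diet DTR and the 8 of normal diet WT removed, the fibroblast median of that pair moved from 2.88 to 0.44 and Dcn, a fibroblast proteoglycan, from 1.63 to -0.19. In the DTR libraries too few members were left to refit the ratios without cells that held other classes' UMIs.

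On high fat diet the 23 DTR members were compared with 265 WT members. Of 5630 genes, 7.48% were past 2-fold higher and 6.61% past 2-fold lower, with a median of 0.10 and a TMM shift of -0.26 that turned 421 higher and 372 lower into 217 and 593. Among the markers, picked on these libraries, Fcrls was lower by -1.35 (-1.70 to -1.02) and Tnip3 by -0.90 (-1.15 to -0.66). Class II genes had a median of -0.65, with none of 8 measured past 2-fold and the intervals of 4 below 0; Cd74 was at 12128 against 20806 CPM. Of 7 measured type 2 dendritic genes 4 were past 2-fold lower and none higher, with a median of -1.02 (-0.71 with equal weight for each cell). The intervals of 4 of them lay below 0 and that of 1 above 0. Mgl2 was at 83.1 against 343 CPM, and Cd209a at 7.91 against 110 CPM, in 2 and 58 cells. Clec10a was higher in DTR in the lowest and highest C1q class, at 221.1 against 92.87 CPM and 279.8 against 141.1 CPM. In the middle class, with 4 DTR cells, it was at 45.35 against 112.5 CPM. Lyz1 was at 31.7 against 1001 CPM, from 5 and 102 cells. F13a1, coagulation factor XIII, was lower by -2.54 (-3.68 to -1.61). Plin2 was higher, at 2204 against 733 CPM, and Lpl was not, at 1777 against 1731 CPM. The lipid-associated list as a whole had 2 of 11 measured genes past 2-fold higher and 3 lower, with a median of 0.04 (-0.22 with TMM scaling).

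Immediate early genes were on the higher side in high fat DTR. These are induced within minutes of stimulation or cell handling. Of 18 listed genes 17 were measured and 12 were past 2-fold higher than in high fat WT, none lower, with a median of 1.21 (0.95 with TMM scaling) beside 0.10 over all genes. Fos was at 337, 400, 581 and 2070 CPM in normal diet WT, normal diet DTR, high fat WT and high fat DTR, and Jun at 238, 291, 369 and 1674 CPM. Ier3, an early survival gene, was at 232, 642.5, 211 and 1239 CPM, and Dusp1, a MAP kinase phosphatase, at 1007, 1088, 1282 and 3280 CPM. High fat DTR was the highest library for all 4. On normal diet the list's median for DTR over WT was 0.14 (-0.14 with TMM scaling), with 2 of 18 past 2-fold higher. The time from tissue to lysis is not stated for each library, and its part was not tested.

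Interferon response genes were higher in the DTR members on both diets, each time against another WT library. Of 24 listed genes 11 reached 50 UMIs in each pair. The UMIs of both libraries count for this cut, so a scarce gene could pass through the library where it was high. Irf7 did so on high fat diet, with 34 DTR and 39 WT UMIs. The counts and medians below are thus a description of the genes that passed. On normal diet 7 of the 11 were past 2-fold higher and none lower, with a median of 1.11, and on high fat diet 8 of 11 and none, with a median of 1.22. With TMM scaling the medians were 0.83 and 0.96, and with equal weight for each cell 0.85 and 0.92. Bst2 (tetherin), the broadest, was at 68.5, 147.5, 72.6 and 241 CPM in normal diet WT, normal diet DTR, high fat WT and high fat DTR, in 189, 13, 119 and 16 cells. Zbp1, a nucleic acid sensor, was at 22.1, 98.3, 23.5 and 94.97 CPM. For each of these genes both DTR libraries lay above both WT libraries. Irf7, an amplifier of type I interferon, was at 4.66, 77.2, 13.7 and 134.5 CPM. Rsad2, at 197 CPM in normal diet DTR, came from 2 cells, and Ifit1 there went from a log2 ratio of 2.03 to 0.70 without the doublet call.

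The named genes on high fat diet were Spp1, Mcemp1, Postn, Txnip, Irf7 and Lgals3bp on the higher side and Ighm, Igkc, Lyz1, Il1rl1, Fabp4 and Cd209a on the lower. Spp1, osteopontin, was at 1096 against 13.3 CPM but in 4 of 23 DTR cells. Txnip, a regulator of glucose uptake, was at 1025 against 96.8 CPM in 13 and 89 cells (3.41, 3.15 to 3.66), and Lgals3bp, an interferon-induced secreted protein, at 194 against 19.99 CPM in 13 and 37 cells. Il1rl1, the interleukin-33 receptor, had 1 UMI in the DTR members and 184 in 115 WT members.

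**Figure D5:**
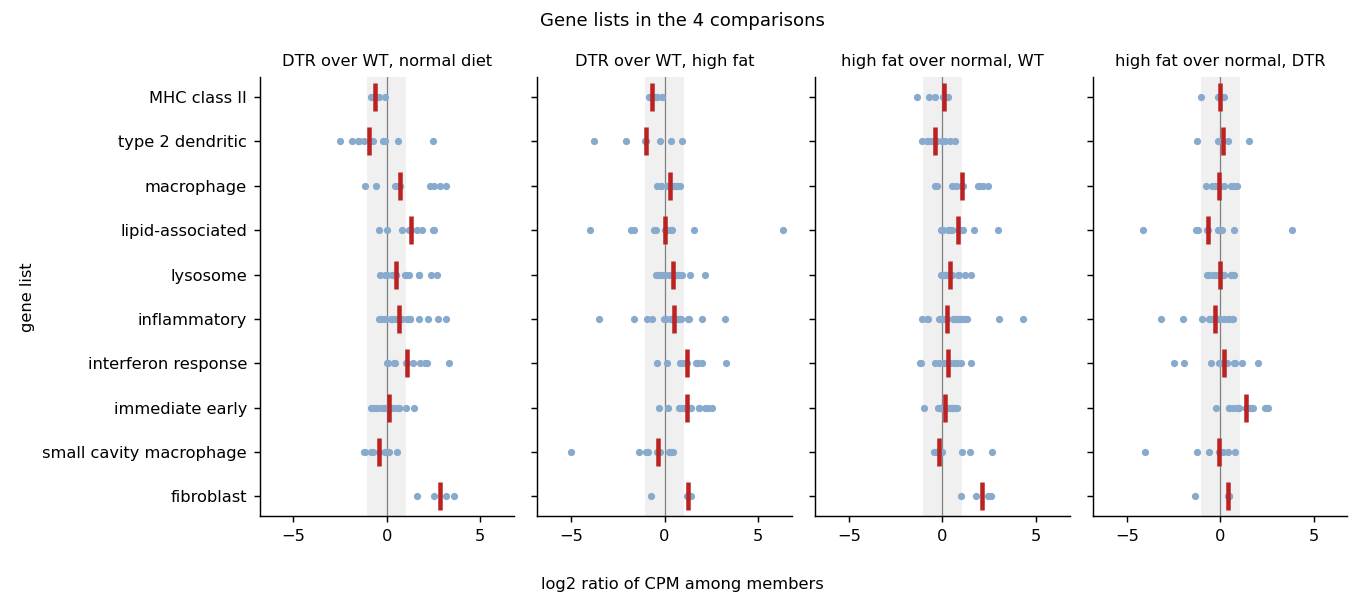
Log2 ratio of CPM among members (horizontal axis) for each measured gene (points) and the list median (red mark) of 10 gene lists, 1 panel per comparison; grey marks the range within 2-fold. Interferon medians are 1.11 and 1.22 in the DTR over WT panels, class II medians -0.62 and -0.65, and the immediate early median is 1.21 on high fat diet and 0.14 on normal diet.

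Diet within WT was the pair with the most cells, 265 on high fat and 390 on normal diet. Of 7623 genes 2.43% were past 2-fold higher on high fat diet and 1.73% past 2-fold lower, with a median of 0.09 (185 higher and 132 lower, or 144 and 187 with TMM scaling). Macrophage genes were on the higher side, 5 of 10 measured past 2-fold and none lower, with a median of 1.05, and of 6 measured resident genes 4, with a median of 1.72. Within members with under 3 C1q UMIs the medians were 0.38 and 0.06; the macrophage list holds the 3 C1q genes themselves, so its lower median there follows in part from that cut. C1qb was at 1001 against 245 CPM, Pf4 at 231 against 23.8 CPM in 63 and 9 cells, and Apoe at 488 against 228 CPM. Pf4 was a named gene, with Mgp, Gdf15, Ccl8, Fscn1 and Postn.

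Other diet differences within WT were also seen in the low-C1q members. Plin2 was higher on high fat diet by a log2 ratio of 1.66 (1.55 to 1.77) over all members and 1.40 in the low-C1q ones, and Tnf by 1.31 (1.15 to 1.46) and 1.29. Gdf15, a stress-induced cytokine, was at 140 against 5.83 CPM in 37 and 14 cells, and its log2 ratio of 4.59 was 1.87 in low-C1q members. H2-DMb2 was at 101 against 259 CPM (-1.36, -1.55 to -1.17), and Il6 at 142 against 302 CPM, with log2 ratios in low-C1q members of -1.07 and -0.69. Mgp, a matrix protein of stromal cells, was at 300 against 5.83 CPM, in libraries whose members had 1083 and 371 CPM of fibroblast markers. Its log2 ratio of 5.69 was 3.72 without doublet calls and 3.35 at a Retnla cut of 40 UMIs. On the lower side the named genes were Igha, Iglc1, S100a9, Spib, Scd2 and AA467197. The log2 ratio of Igha, -9.15, was -3.05 without cells that held other classes' UMIs. The desaturase gene Scd2 was at 2.80 against 24.0 CPM in 7 and 64 cells, and AA467197 at 6.66 against 55.0 CPM in 15 and 88 cells. The genes that mark the cells were picked on these libraries. They were lower on high fat diet by less than 2-fold, all 3 with intervals below 0: Tnip3 by a log2 ratio of -0.35 (-0.42 to -0.29), Lyz1 by -0.28 (-0.35 to -0.21) and Fcrls by -0.11 (-0.18 to -0.03). Irf4 was at 238 against 241 CPM, a log2 ratio of -0.02 (-0.16 to 0.12).

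Diet within DTR compared 23 with 23 cells, and 1670 genes reached 50 UMIs. Of these 5.57% were past 2-fold higher on high fat diet and 4.37% past 2-fold lower, with a median of -0.01 (93 higher and 73 lower, or 73 and 89 with TMM scaling). Of 17 immediate early genes 9 were past 2-fold higher and none lower, with a median of 1.38. Vps37b, in 15 and 6 cells, and Rgcc, in 8 and 4, were the broadest of the named higher genes, with Fbn1, Hspb1, Spp1 and Arg1 in 3 to 7 high fat cells. On the lower side were Ccl24, Cxcl9, Igkc, Fabp4, Ccr7 and Lyz1. Ccl24 was at 43.5 against 1931 CPM in 2 and 12 cells, and the fatty acid binding protein Fabp4 at 23.7 against 425 CPM in 4 and 10 cells. Lpl was at 1777 against 4318 CPM, while Tnip3 (-0.08, -0.41 to 0.24) and H2-Ab1 (0.00, -0.12 to 0.11) had intervals that held 0. The 4 comparisons share libraries in pairs, so their lists are not independent of each other.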

How the data were processed

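The values deposited are UMI counts, not normalised, of each gene in each barcode of 4 libraries (32 records, 8 runs a library). The submitters' processing notes name Cell Ranger 3.1.0 and the mm10 build. A barcode's suffix gave its library, by its place in the aggregation list; nothing else in the files states this. Barcodes with 300 or more genes and no more than 10% mitochondrial UMIs were kept as cells. The members and the 34 gene lists were chosen with earlier results of these data known. Summed UMIs gave CPM with exact Poisson intervals and log2 ratios with conditional exact binomial intervals. Ratios were taken for genes with 50 UMIs over the compared libraries and groups of 20 cells, and rule genes were left out. As the UMIs of both libraries count, a scarce gene can pass this cut through the library where it is high. A count of 0 was set to 3 UMIs. Named genes were the 6 largest and 6 smallest log2 ratios whose interval excluded 0, or against a reference gate, the 6 each way largest in their weakest library; list members served as examples. Scrublet calls (expected rate 5.4%, scanpy 1.11.5) were kept in the main values and removed in an alternative. Scaling alternatives used edgeR 4.0.16; no edgeR test was run. Ratios were tested on simulated Poisson counts with no variation between cells. That test cannot show how the intervals behave for genes whose UMIs came from few cells. Some genes are not reported here.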

Additional observations from a re-analysis of the deposited data

Results flagged for a closer look

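In 4 of 203 list and named genes (1.97%) the DTR over WT log2 ratio among members was past 2-fold in opposite directions on the 2 diets, with counting intervals that excluded 0; the difference itself was not tested. Over all 5558 genes measured on each diet 16 (0.288%) did so, and the 203 include genes named for their large ratios. Ccl24 had 4.02 on normal and -2.70 on high fat diet, from 12 and 2 DTR cells. Ccr7, the homing receptor of migratory dendritic cells, had 2.41 and -2.26, from 1 and 3 DTR cells. Fabp4 had 1.26 and -3.96, from 10 and 4 DTR cells, and Rgcc -2.29 and 1.09, from 4 and 8. Barcodes that met the marker cuts but not the filter on genes and mitochondrial UMIs numbered 11 in normal diet WT and 7 in high fat WT, above the 3 that a count of 0 allows, and 0 in both DTR libraries.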

How the results depend on the processing

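Member shares were lower in DTR than in WT on both diets under all 10 alternatives. The log2 ratio of shares on normal diet, -3.72, was -4.78 with every cell thinned to 3000 UMIs, -2.92 with the Fcrls plus Tnip3 cut and -4.86 with low-C1q members. With cells holding other classes' UMIs left out, the ratio on high fat diet went from -3.36 to -4.83, the WT diet ratio from -0.67 to -1.02 (-1.15 in low-C1q members) and the DTR diet ratio from -0.30 to -1.95 (-3.76 to -0.42), on 5 high fat DTR cells. The number of genes past 2-fold moved with the minimum UMI count, from 1159 to 294 at 200 UMIs and 2747 at 10 for DTR over WT on normal diet, from 793 to 167 and 2249 on high fat diet, from 317 to 110 and 1079 for diet in WT, and from 166 to 40 and 1148 for diet in DTR, since fewer or more genes were tested. Dcn, on normal diet, went to -0.19 without doublet calls; Col1a1, for diet in WT, to -0.028 at a Retnla cut of 40, and Cxcl1 to -0.13 in low-C1q members. Thinning moved 34 of 48 dendritic detection shares out of their interval, since fewer UMIs were read. With under 20 cells in a DTR library, gene ratios were not run at a Retnla cut of 40, without other classes' cells or in low-C1q members for the 3 comparisons that use one. No paired analysis was possible because each group is 1 library. The limits are the 23 members of each DTR library, 1 library per group, and shallow UMI counts of scarce genes.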
